A study of Mus musculus with 13 samples.

Results

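The small leucine-rich proteoglycans (SLRPs) are secreted matrix proteins built around a curved stack of leucine-rich repeats. The 10 genes described here, Kera, Fmod, Lum, Dcn, Bgn, Ogn, Prelp, Omd, Aspn and Chad, were taken by name from the table of normalized counts of mouse gastrocnemius muscle, which lists 21868 genes. They were chosen by name with their normalized counts across the 3 treatment groups of these same mice known. Their levels, fold changes and calls are therefore given as a description, with no p-value printed for any of them. Adjusted p-values are printed only for genes outside the list. The lists of those genes were also chosen with earlier results of these data known, so their p-values carry the same limit. All 10 had a mean of at least 10 normalized counts over the 13 mice, the filter that 12303 genes passed before testing.

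RNA-seq was performed on the gastrocnemius, a calf muscle, of male C57BL/6 mice (C57BL/6N per the study's description of the RNA-seq data) that were 7 weeks old on arrival. All 13 mice were first made obese on a diet with 60 kcal% fat for 15 to 17 weeks and were then returned to standard chow, so that the vehicle-treated mice had also left the high-fat diet. For the next 3 weeks 5 mice received phosphate-buffered saline and placebo (vehicle), 5 received intraperitoneal semaglutide at 30 nM/kg/day and placebo, and 3 received the same semaglutide and drank water that held ketone ester at 0.114 g/mL. Semaglutide is a GLP-1 receptor agonist that lowers food intake and body weight, and the ketone ester is a dietary precursor of the ketone body β-hydroxybutyrate. The comparisons ask how muscle transcripts differed under semaglutide, and how they differed when the ketone ester was added. Mice are called by the numbers in their labels, 1 to 5 for vehicle, 13 to 17 for semaglutide and 19, 21 and 22 for semaglutide + ketone ester.

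SLRPs bind the surface of collagen fibrils through their repeats, and mice that lack individual members form fibrils of abnormal diameter in tendon, skin or cornea. Many carry glycosaminoglycan chains: class I proteins (Dcn, Bgn) carry chondroitin or dermatan sulfate, and class II proteins (Fmod, Lum, Kera, Omd, Prelp) are keratan sulfate proteoglycans or glycoproteins, whereas Ogn belongs to class III and Chad to class IV. Released into the matrix, several of them also bind TGF-β or cell surface receptors. In skeletal muscle they are made by fibroblasts of the connective tissue around fibres and bundles and by the tenocytes of tendon and aponeurosis, not chiefly by the fibres themselves.

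Reads counted on genes ranged from 15319471 to 23498162 per mouse, and 3 reads corresponded to between 2.24 and 3.64 normalized counts. The 6 muscle fibre markers summed to at least 1388760 normalized counts in every mouse. Of all genes tested, 25.1% passed the threshold between semaglutide and vehicle, 18.4% between semaglutide + ketone ester and semaglutide, and 0.236% between semaglutide + ketone ester and vehicle (limma, Benjamini-Hochberg adjusted p under 0.05). The first comparison had 1459 genes higher and 1625 lower, against 3262 and 929 after each column was scaled to the same total. The second had 1118 higher and 1144 lower, against 611 and 3587 after that rescaling, which moved the median log2 fold change of all genes by 0.17 in the first comparison and by -0.23 in the second. A pair of mice stood apart in the genes described here. Semaglutide mouse 13 also did so more widely. On the main axis of variation between mice (first principal component, 38.1% of variance) its score was -9.12. Vehicle-treated mice scored -24.5 to -12.8 (mouse 1), and mice given the ketone ester -25.6 to -15.8. Semaglutide mice 14 to 17 scored 31.8 to 52.5. Without mouse 13 alone, 4450 genes passed the threshold in the first comparison, against 3084 with all mice. In the second, 3959 passed, against 2262. Vehicle mouse 1 was the lowest vehicle-treated mouse for 9 of the 10 genes, Aspn being the exception, and semaglutide mouse 13 was the highest semaglutide-treated mouse for 6 of them. The 10 genes together took 0.0282% of the reads in vehicle mouse 1 and between 0.0616% and 0.088% in the other 4 vehicle-treated mice, against 0.0366% to 0.0506% in semaglutide-treated mice and 0.0474% to 0.0607% with the ketone ester. Fold changes of the 10 genes under semaglutide are therefore also given without both of them, as are those of some other genes, a choice made after the data were seen. Since mouse 1 was low among the vehicle-treated mice and mouse 13 mostly high among the semaglutide-treated mice, leaving them out widens most decreases under semaglutide by construction.

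Kera, keratocan, is a keratan sulfate proteoglycan best known from the corneal stroma and also made in tendon. Its normalized counts were 24.0, 117, 91.6, 174 and 123 in vehicle mice 1 to 5, 8.70, 3.38, 0, 0 and 1.49 in semaglutide mice 13 to 17, and 119, 196 and 139 in semaglutide + ketone ester mice 19, 21 and 22. All 5 semaglutide values lay under the lowest vehicle value and under the lowest value with the ketone ester. The semaglutide values rested on 9, 3, 0, 0 and 2 reads, so 4 of the 5 mice were at or under the 3-read floor. The group means differed 39.0-fold between vehicle and semaglutide and 55.7-fold between semaglutide + ketone ester and semaglutide. On the scale of log2(normalized count + 1), Kera was lower by -5.15 ± 0.65 (SE) under semaglutide and higher by 5.87 ± 0.75 when the ketone ester was added, and these differences were -3.74 and 4.42 with a pseudocount of 5. Without vehicle mouse 1 and semaglutide mouse 13 they were -6.09 ± 0.44 and 6.36 ± 0.48. Between semaglutide + ketone ester and vehicle the difference was 0.73 ± 0.75. These were the largest fold changes of the 10 genes in the first 2 comparisons. In bulk tissue, fewer cells of a type and less RNA per cell cannot be told apart, which holds for all values given here.

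**Figure D1:**
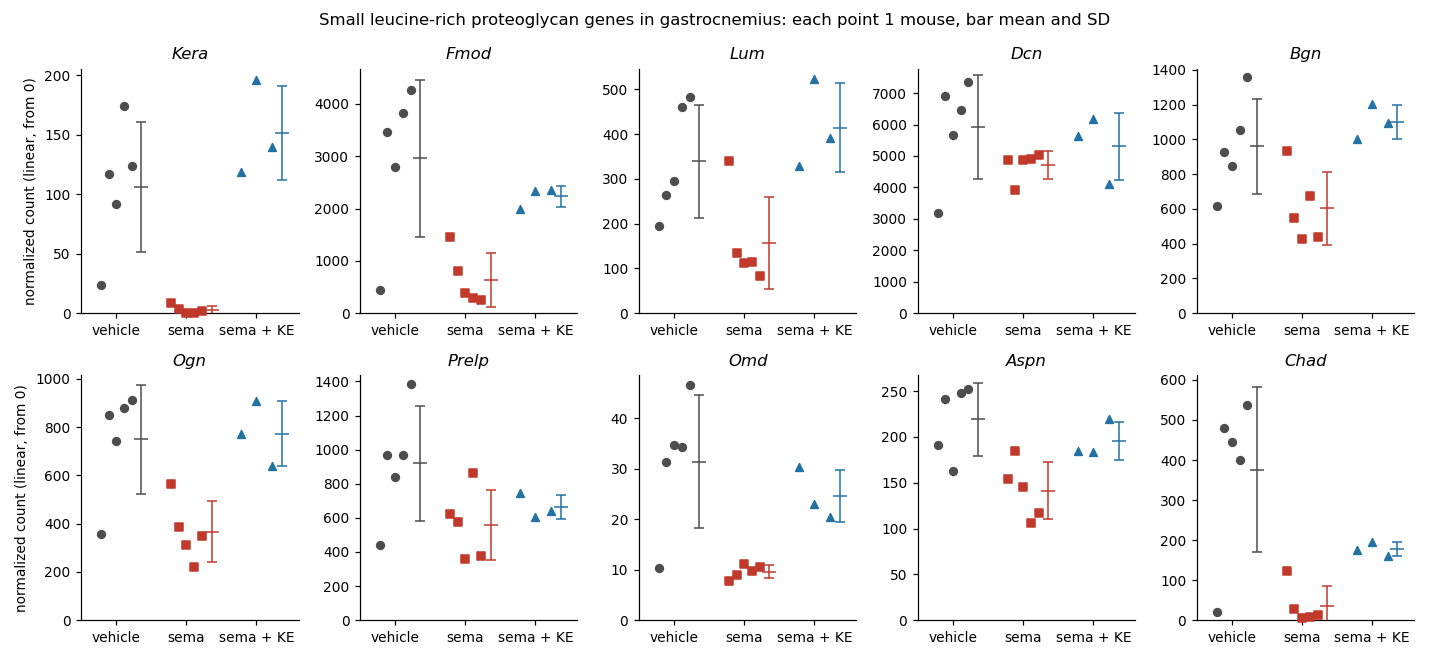
Normalized counts of the 10 genes (linear axes from 0) in each mouse of the vehicle, semaglutide (sema) and semaglutide + ketone ester (sema + KE) groups, with 1 point per mouse in the order of mouse numbers and the mean ± SD beside each group, cut at 0. Kera lay between 0 and 8.70 in the 5 semaglutide-treated mice and between 119 and 196 with the ketone ester, whereas Dcn stayed between 3924 and 5018 under semaglutide.

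Fmod, fibromodulin, and Chad, chondroadherin, are abundant in tendon and cartilage, where Fmod guides collagen fibril growth and cross-linking and Chad links collagen to cells. Fmod had normalized counts of 453, 3460, 2798, 3823 and 4265 in vehicle mice 1 to 5, 1463, 801, 382, 288 and 247 in semaglutide mice 13 to 17, and 1998, 2341 and 2359 with the ketone ester. Chad had 20.6, 479, 444, 399 and 538 in vehicle-treated mice, 123, 28.2, 4.44, 7.77 and 12.7 in semaglutide-treated mice, and 176, 194 and 160 with the ketone ester. For both genes vehicle mouse 1 lay within the semaglutide range, the other 4 vehicle-treated mice lay above it, and all 3 mice given the ketone ester lay above all 5 semaglutide-treated mice. Semaglutide differed from vehicle by a log2 fold change of -2.22 ± 0.62 for Fmod and -3.74 ± 0.96 for Chad. Without vehicle mouse 1 and semaglutide mouse 13 these values were -3.20 ± 0.31 and -5.30 ± 0.40. Adding the ketone ester gave 2.15 ± 0.72 for Fmod and 3.24 ± 1.10 for Chad, neither past the threshold, and 2.53 ± 0.34 and 3.92 ± 0.44, both past it, without those 2 mice. Against vehicle, the mice given the ketone ester differed by -0.08 ± 0.72 for Fmod, which was -0.67 ± 0.34 without those 2 mice, and by -0.50 ± 1.10 for Chad. The 3 Chad values with the ketone ester lay below those of vehicle mice 2 to 5, and the difference was -1.39 ± 0.44 without the 2 mice, still short of the threshold.

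The other class II genes also had their lowest mean under semaglutide, with smaller differences. Lum, lumican, a keratan sulfate proteoglycan of cornea, skin and tendon, had 196, 264, 294, 460 and 482 normalized counts in vehicle-treated mice, 339, 135, 112, 116 and 83.5 in semaglutide-treated mice, and 329, 523 and 391.8 with the ketone ester. Semaglutide mouse 13 alone lay within the range of the other groups, and the other 4 semaglutide-treated mice lay below all vehicle-treated mice. Omd, osteomodulin, named for its place in mineralized matrix, was scarce, at 10.3, 31.3, 34.6, 34.4 and 46.6 in vehicle-treated mice, 7.74, 9.02, 11.1, 9.71 and 10.4 in semaglutide-treated mice, and 30.4, 23.0 and 20.4 with the ketone ester. Only vehicle mouse 1, with 9 reads, overlapped the semaglutide-treated mice. Prelp, which anchors basement membranes to the connective tissue, had 443, 968, 841, 968 and 1383 in vehicle-treated mice, 620, 576, 359, 863 and 374 in semaglutide-treated mice, and 743, 605 and 643 with the ketone ester. The 3 groups overlapped for Prelp, semaglutide mice 13, 14 and 16 lying within the vehicle range and mouse 16 also within that of vehicle mice 2 to 5. Fold changes between semaglutide and vehicle on the log2 scale were -1.21 ± 0.35 for Lum, -1.48 ± 0.31 for Omd and -0.71 ± 0.30 for Prelp, the last not past the threshold. The ketone ester added 1.55 ± 0.41 for Lum and 1.26 ± 0.36 for Omd, but 0.32 ± 0.34 for Prelp. Without vehicle mouse 1 and semaglutide mouse 13 the values under semaglutide were -1.71 ± 0.23 for Lum and -1.76 ± 0.15 for Omd, that of Prelp was -1.01 ± 0.27 and passed the threshold, whereas the difference of Prelp with the ketone ester stayed at 0.38 ± 0.29.

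The class I genes had the smallest differences under semaglutide, though that of the class II gene Prelp (-0.71 ± 0.30) was close to that of Bgn. Without vehicle mouse 1 and semaglutide mouse 13 those of Prelp and Bgn were both -1.01. Dcn, decorin, the most abundant SLRP of muscle connective tissue and a ligand of TGF-β, had 3196, 6916, 5655, 6447 and 7358 normalized counts in vehicle-treated mice, 4866, 3924, 4876, 4893 and 5018 in semaglutide-treated mice, and 5623, 6174 and 4124 with the ketone ester. The lowest value of all 13 mice was that of vehicle mouse 1, and the other 4 vehicle-treated mice lay above all semaglutide-treated mice. Bgn, biglycan, the closest relative of Dcn, had 616, 927, 848, 1054 and 1359 in vehicle-treated mice, 930, 547, 425, 675 and 437 in semaglutide-treated mice, and 1004, 1202 and 1096 with the ketone ester. All 3 mice given the ketone ester lay above all semaglutide-treated mice for Bgn, while vehicle and semaglutide overlapped through mice 1 and 13. Aspn, asporin, which carries no glycosaminoglycan chain, had 191, 242, 163, 248 and 253, then 154, 185, 146, 106 and 117, then 185, 184 and 220 in the same order of mice. Vehicle mouse 3 and semaglutide mouse 14 made the groups overlap for Aspn. Log2 fold changes between semaglutide and vehicle were -0.27 ± 0.21 for Dcn, -0.69 ± 0.24 for Bgn and -0.64 ± 0.17 for Aspn. For the ketone ester group against semaglutide they were 0.16 ± 0.24 for Dcn, 0.93 ± 0.27 for Bgn and 0.49 ± 0.19 for Aspn, and only that of Bgn passed the threshold. The difference for Dcn under semaglutide was -0.50 ± 0.14 and passed the threshold without vehicle mouse 1 and semaglutide mouse 13, and it was -0.48 without vehicle mouse 1 alone. Those of Bgn and Aspn were -1.01 ± 0.18 and -0.72 ± 0.19 without both mice. After rescaling to equal totals the difference for Dcn with the ketone ester turned to -0.08.

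Ogn, osteoglycin or mimecan, the class III member, had 358, 850, 744, 877 and 914 normalized counts in vehicle-treated mice, 566, 385, 311, 221 and 348 in semaglutide-treated mice, and 772, 906 and 638 with the ketone ester. Vehicle mouse 1 alone overlapped the semaglutide-treated mice, and all 3 mice given the ketone ester lay above them. The log2 fold change was -1.02 ± 0.28 under semaglutide (-1.44 ± 0.17 without vehicle mouse 1 and semaglutide mouse 13) and 1.13 ± 0.32 when the ketone ester was added. Between semaglutide + ketone ester and vehicle it was 0.10 ± 0.32, and -0.14 without vehicle mouse 1.

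Counted together, 8 of the 10 genes were past the threshold and lower under semaglutide than under vehicle, where 13.2% of all genes tested were lower and 11.9% higher, and Dcn and Prelp were not. Kera was the only one without overlap between these groups, against 7.45% of all genes that were lower, and 7.22% that were higher, without overlap. Between semaglutide + ketone ester and semaglutide, 5 of the 10 were past the threshold and higher (Kera, Lum, Bgn, Ogn and Omd), where 9.09% of all genes were higher and 9.3% lower. Without overlap in that comparison were 6 (Kera, Fmod, Bgn, Ogn, Omd and Chad), against 9.96% of all genes higher and 10.2% lower. None of the 10 was past the threshold between semaglutide + ketone ester and vehicle by limma, by edgeR or by DESeq2. By limma 0.236% of all genes were (0.0732% higher and 0.163% lower), and none of the 10 had an unadjusted p under 0.05. Without vehicle mouse 1 and semaglutide mouse 13 none was past the threshold either. The log2 fold changes were then -0.56 ± 0.16 for Omd, -1.39 ± 0.44 for Chad, -0.63 ± 0.29 for Prelp and -0.33 ± 0.15 for Dcn. Fmod, Ogn and Aspn also lay below 0, and Kera (0.26 ± 0.48), Lum (0.17 ± 0.25) and Bgn (0.09 ± 0.19) above it. With all 13 mice, none of the 10 was free of overlap in this comparison, against 5.45% of all genes higher and 5.88% lower. By the study's own criterion, a one-way analysis of variance with unadjusted p under 0.05 and a fold of at least 1.5 across the 3 groups, 8 of the 10 were altered (all but Dcn and Prelp), against 16.1% of all genes tested. These counts describe genes listed for such differences and carry no test. Because semaglutide is shared by the first 2 comparisons, their values for a gene are not independent. Median log2 fold changes of the 10 genes were -1.12 under semaglutide, 1.19 with the ketone ester against semaglutide and -0.10 with the ketone ester against vehicle, where those of all genes tested were -0.00287, -0.000243 and -0.00593.

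**Figure D2:**
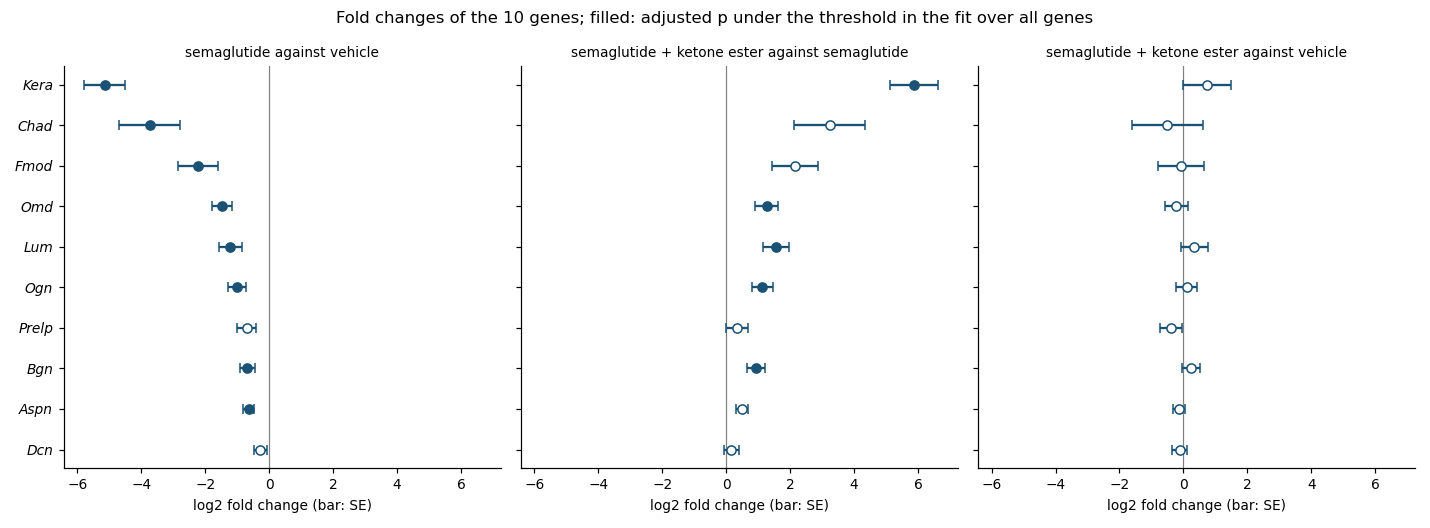
Log2 fold changes (points) with SE (bars) of the 10 genes in the 3 comparisons, from the limma fit on log2(normalized count + 1) over all genes, with filled points for an adjusted p under 0.05. Semaglutide against vehicle ran from -5.15 for Kera to -0.27 for Dcn, and no point was filled for semaglutide + ketone ester against vehicle.

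Some of these calls rested on single mice. Under semaglutide, Kera, Omd, Aspn and Chad were past the threshold whichever of the 13 mice was left out, and Ogn lost its call only without vehicle mouse 4. Fmod was not past it without any one of mice 2, 4, 5, 15, 16 or 17, Lum without 4, 5, 15, 16 or 17, and Bgn was past it only when mouse 1 or mouse 13 was left out. The count of 8 genes became 4 without vehicle mouse 4 and 5 without vehicle mouse 5, semaglutide mouse 15 or semaglutide mouse 17. In the second comparison, semaglutide + ketone ester against semaglutide, Kera alone kept its call in all 13 fits, and the count of 5 genes became 3 without mouse 15, 2 without mouse 17 or mouse 19, and 1 without mouse 21 or mouse 22. By the study's criterion the count of 8 became 5 without mouse 17.

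Levels were compared between genes after dividing normalized counts by the length of each gene's merged exons (GENCODE M21, GRCm38). This length joins the exons of all annotated transcripts, so the order depends in part on the annotation. It was 6.10 kb for Bgn and 5.84 kb for Dcn, against at most 3.62 kb for the others. Before the division Bgn averaged 961 normalized counts with vehicle, above Prelp (921), Ogn (749) and Chad (376). Dcn was highest in each group, at 1013 ± 282 normalized counts per kb (SD, n = 5) in vehicle-treated mice, 808 ± 76.5 (n = 5) under semaglutide and 909 ± 182 (n = 3) with the ketone ester. Fmod was second, at 895 ± 454, 192 ± 155 and 675 ± 61.5 normalized counts per kb. In vehicle-treated mice the order below these was Ogn, Prelp, Chad, Bgn, Lum, Aspn, Kera and Omd, and the range of each gene over the 5 mice met that of the next in the order. Under semaglutide Dcn stood clear of Fmod, its lowest mouse at 672 against a highest of 443 for Fmod. Chad then ranked eighth at 20.9 ± 29.7 and Kera last at 1.19 ± 1.59, below Omd at 4.27 ± 0.58, with ranges that met. In mice given the ketone ester Chad ranked seventh at 105 ± 10.3 and Kera ninth at 66.4 ± 17.4 normalized counts per kb, and the ranges of Chad and Aspn, and of Kera and Omd, did not meet.

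Several of the 10 genes are neighbours in the genome (GRCm38). Dcn (chr10:97479609-97518143), Lum (chr10:97565128-97572703) and Kera (chr10:97606879-97613692) lie in a row on the plus strand, 47.0 kb and 34.2 kb apart, followed after 30.4 kb by the SLRP gene Epyc. Ecm2, Aspn (chr13:49544443-49567565), Omd (chr13:49582462-49592822) and Ogn (chr13:49608046-49624501) form a second row, with gaps of 11.7, 14.9 and 15.2 kb. Prelp (chr1:133910304-133921414) and Fmod (chr1:134037254-134048277) lie 116 kb apart on opposite strands, and Bgn (chrX:73483602-73495933) and Chad (chr11:94565047-94569127) stand alone. Neighbours differed in their values: within the first row the log2 fold change under semaglutide was -0.27 for Dcn, -1.21 for Lum and -5.15 for Kera, and in the second it was -0.64 for Aspn, -1.48 for Omd and -1.02 for Ogn.

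RefSeq promoter windows (GRCm38.p6) were found for 8 of the 10 genes, with no entry for Lum and Dcn. The 250 bases before the start of Fmod (chr1:134037004-134037253), Chad (chr11:94564797-94565046) and Omd (chr13:49582212-49582461), all on the plus strand, are shown because these genes had the largest fold changes under semaglutide after Kera, whose window lies within an annotated exon of the gene. Capitals mark matches to CANNTG, the E-box letters bound by basic helix-loop-helix factors such as scleraxis, and to TATAAA, the TATA box.
Fmod: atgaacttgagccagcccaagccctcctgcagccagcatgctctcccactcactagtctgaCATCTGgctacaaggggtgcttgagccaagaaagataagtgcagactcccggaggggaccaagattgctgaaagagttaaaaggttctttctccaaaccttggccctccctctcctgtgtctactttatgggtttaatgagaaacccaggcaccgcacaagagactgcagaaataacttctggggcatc
Chad: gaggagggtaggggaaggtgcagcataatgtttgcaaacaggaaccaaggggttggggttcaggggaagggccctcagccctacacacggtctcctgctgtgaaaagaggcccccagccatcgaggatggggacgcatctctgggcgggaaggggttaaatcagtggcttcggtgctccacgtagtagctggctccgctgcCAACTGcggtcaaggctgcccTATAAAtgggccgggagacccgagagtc
Omd: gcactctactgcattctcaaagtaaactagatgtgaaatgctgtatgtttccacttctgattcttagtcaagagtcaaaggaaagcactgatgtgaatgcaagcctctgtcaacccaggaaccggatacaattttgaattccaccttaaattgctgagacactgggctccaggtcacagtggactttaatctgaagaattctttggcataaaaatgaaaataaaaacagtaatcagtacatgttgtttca

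Both strands of the 250 bases were searched for CANNTG, for TATAAA, for CAGAC (the letters bound by SMAD proteins) and for TGANTCA (the AP-1 letters), none of which overlaps another in the windows shown. CANNTG was found in 5 of the 8 windows (Fmod, Bgn, Ogn, Aspn and Chad), against 66.2% of all 32851 promoters. TATAAA was found in 3 of the 8 (Ogn, Aspn and Chad), against 12.4% of all promoters. On the strand of the gene it began at position -28 from the start for Chad, but at -227 for Ogn and -207 for Aspn. CAGAC was found in Fmod, with 2 matches not drawn in capitals, and in Prelp, against 42.2% of all promoters. TGANTCA was in none of the 8 windows and in 6.75% of all promoters. A match is a description of the letters only.

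Across the 13 mice, levels of the 10 genes on the log2 scale varied together to different degrees. These correlations are descriptive, since the mice share 3 groups and the 2 mice that stood apart. Kera followed Ogn (Pearson r = 0.928), Chad (0.910), Fmod (0.897) and Lum (0.897) most closely, and Dcn least (0.455). After the group means were removed, r with Kera was 0.932 for Chad, 0.917 for Ogn and 0.876 for Fmod, but 0.362 for Omd. Dcn followed Omd (r = 0.749 over the 13 mice and 0.869 after the group means were removed) more closely than it followed Kera. Of all genes tested outside the list, the 5 most like Kera were the collagen genes Col1a2 (r = 0.972 over the 13 mice, 0.859 of deviations from the group means) and Col1a1 (0.969 and 0.824), Foxo6 (0.967 and 0.727), Ssc5d (0.967 and 0.76) and Copg2 (0.965 and 0.78). The 5 most like Dcn were Plau (0.903 and 0.952), Pdgfra (0.888 and 0.933), the receptor that marks fibro-adipogenic progenitors, Colec12 (0.881 and 0.921), Dab2 (0.866 and 0.89) and Dzip1 (0.848 and 0.837). No gene was shared by these lists of 5.

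Summed markers of cell types that make SLRPs varied with the 10 genes, although not every marker did. Their part in the differences was not tested. Thbs4 made up the largest part of the tendon sum, averaging 1669 normalized counts with vehicle, followed by Col22a1 at 458. The 7 tendon markers (Tnmd, Scx, Mkx, Thbs4, Cilp2, Ptx4 and Col22a1) summed to 1261 normalized counts in vehicle mouse 1 and to between 2357 and 2981 in the other vehicle-treated mice, to between 613 and 1594 under semaglutide, with mouse 13 highest, and to between 1663 and 2217 with the ketone ester. Of the 6 tested, 4 fell under semaglutide, and 3 rose and 1 fell with the ketone ester against semaglutide. Tnmd, tenomodulin, which defines mature tenocytes, averaged 108 ± 49.95 (SD, n = 5) normalized counts with vehicle, 10.5 ± 9.83 (n = 5) under semaglutide and 112 ± 26.9 (n = 3) with the ketone ester. It fell by -3.43 ± 0.58 (SE, limma adjusted p = 0.00198) under semaglutide, which was -4.29 ± 0.38 without vehicle mouse 1 and semaglutide mouse 13, and rose by 3.67 ± 0.67 (adjusted p = 0.00453) with the ketone ester. Scx, scleraxis, the tendon transcription factor, differed by 0.29 ± 0.27 (adjusted p = 0.471) under semaglutide and fell by -1.07 ± 0.31 (adjusted p = 0.0346) with the ketone ester. No tendon marker was at 0 in every mouse.

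**Figure D3:**
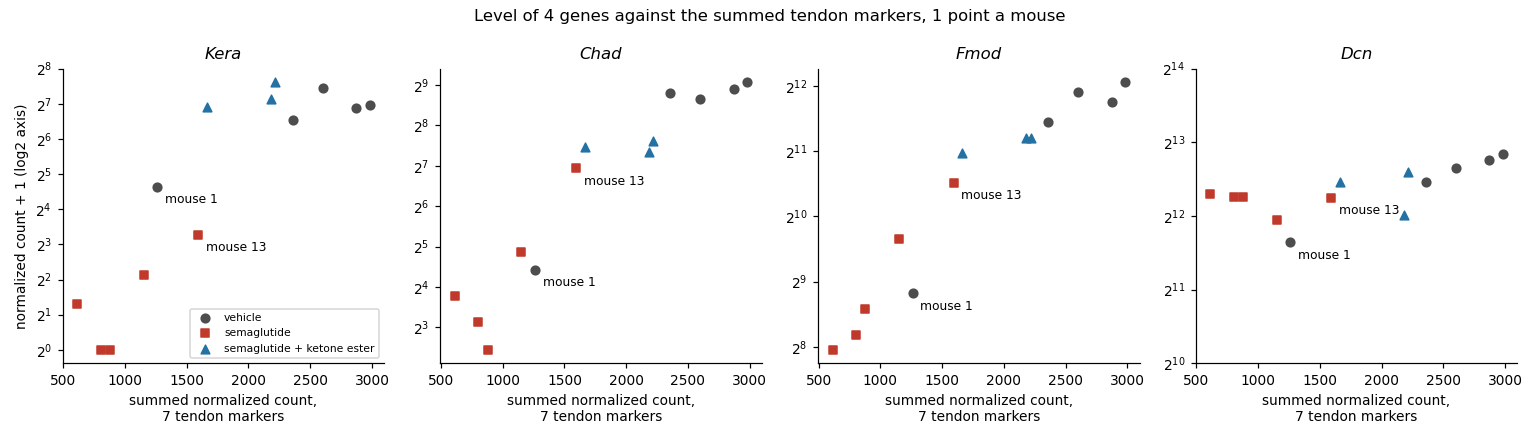
Normalized count + 1 (log2 axis) of Kera, Chad, Fmod and Dcn in each of the 13 mice against the summed normalized counts of the 7 tendon markers (linear axis), with vehicle mouse 1 and semaglutide mouse 13 named. Mouse 1 lay at 1261 and mouse 13 at 1594 on the horizontal axis, between the other semaglutide-treated mice and the mice given the ketone ester, and Dcn varied over a narrower range than the other 3 genes. Thbs4 made up the largest part of the summed markers.

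The 8 markers of fibroblasts and fibro-adipogenic progenitors summed to 10926 normalized counts in vehicle mouse 1 and to between 15988 and 20939 in the other vehicle-treated mice, to between 7520 and 10899 under semaglutide and to between 10488 and 15569 with the ketone ester. Gsn made up the largest part of this sum, averaging 13241 normalized counts with vehicle. Of these 8, 5 fell under semaglutide (Pdgfra, Cd34, Pi16, Gsn and Mfap5) and 3 rose with the ketone ester (Cd34, Pi16 and Mfap5). Ly6a, Dpp4 and Smoc2 passed the threshold in neither comparison, and Ly6a differed by -0.02 ± 0.13 under semaglutide (adjusted p = 0.913). Of the 5 smooth muscle and pericyte markers, 4 fell under semaglutide. None of the 23 tested markers of adipocytes, Schwann cells, endothelium, immune cells, cartilage and bone passed the threshold of limma there, and 3 had an unadjusted p under 0.05. Cartilage markers, of which 2 of 7 were tested, summed to at most 113 normalized counts in any mouse and bone markers, of which 1 of 6 was tested, to at most 47.1. When the ketone ester was added, 1 endothelial marker (Kdr) and 1 smooth muscle and pericyte marker (Rgs5) rose.

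Markers of the muscle fibres themselves also moved with the groups, and their part in the differences was not tested. The 6 markers summed to between 2273080 and 2794490 normalized counts with vehicle, 1388760 and 2534600 under semaglutide, mouse 13 being highest, and 2935010 and 3493630 with the ketone ester, and none was at 0 in any mouse. Under semaglutide 3 of the 6 fell by limma: Acta1, skeletal actin (-0.46 ± 0.15, adjusted p = 0.0417), Myh4, the fast myosin of type IIB fibres (-0.60 ± 0.19, adjusted p = 0.0371), and Pvalb, parvalbumin, the calcium buffer of fast fibres (-1.36 ± 0.31, adjusted p = 0.00916). The same 3 and Tnnt3 rose when the ketone ester was added.

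Other SLRP genes were tested as genes outside the list. Of 9, Ecm2, Tsku, Podn and Chadl passed the filter on low values, and Epyc, Optc, Nyx, Podnl1 and Nepn, at group means of at most 8.06 normalized counts, did not. Ecm2, a matrix protein with leucine-rich repeats encoded beside Aspn, had 208, 308, 307, 386 and 352 normalized counts in vehicle-treated mice, 227, 161, 151, 155 and 139 in semaglutide-treated mice, and 264, 287 and 255 with the ketone ester. Vehicle mouse 1 alone overlapped the semaglutide-treated mice, and the mice given the ketone ester lay above them. Ecm2 fell by -0.89 ± 0.17 (limma adjusted p = 0.00324) under semaglutide, lower than the vehicle mean in 5 of 5 mice, and kept this call in all 13 fits that left out a mouse. It rose by 0.70 ± 0.19 (adjusted p = 0.0259) with the ketone ester, a call lost without any one of mice 15, 17, 19, 21 or 22 and after rescaling to equal totals. Tsku, Podn and Chadl had log2 fold changes under semaglutide of -0.53 ± 0.31 (adjusted p = 0.228), -0.48 ± 0.33 (adjusted p = 0.316) and -0.67 ± 0.30 (adjusted p = 0.114), none past the threshold.

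The collagens that SLRPs coat, and other proteins of the fibril surface, were the list that most often passed the threshold beside the 10 genes. Of 18, 15 fell and none rose under semaglutide, with a median log2 fold change of -1.50, and 11 rose and none fell with the ketone ester, with a median of 1.38. Among all genes tested 13.2% fell under semaglutide and 9.09% rose with the ketone ester. Col3a1, the collagen of fine fibrils, averaged 1581 ± 398 (SD, n = 5) normalized counts with vehicle, 198 ± 127 (n = 5) under semaglutide and 1147 ± 483 (n = 3) with the ketone ester, and fell by -3.14 ± 0.37 (SE, adjusted p = 0.000265). Col1a1 and Col1a2, the chains of type I collagen, fell by -3.02 ± 0.43 (adjusted p = 0.000742) and -2.88 ± 0.43 (adjusted p = 0.000945), and these values were -3.66 and -3.57 without vehicle mouse 1 and semaglutide mouse 13. Against semaglutide alone, the ketone ester group had Col1a1 higher by 3.03 ± 0.49 (adjusted p = 0.00283), Col1a2 by 2.90 ± 0.49 (adjusted p = 0.00339) and Col3a1 by 2.64 ± 0.43 (adjusted p = 0.00283). All 3 kept both calls whichever mouse was left out. Comp, a pentameric matrix protein of tendon and cartilage, fell by -2.72 ± 0.91 (adjusted p = 0.045), a call that among the fits without 1 mouse held only without mouse 1 or mouse 13, and by -4.16 ± 0.37 without both. Col11a1, a minor fibril collagen, rose by 2.28 ± 0.60 (adjusted p = 0.0213) with the ketone ester, not past the threshold without mouse 21 or mouse 22. Leaving out mouse 21 lowered the count of 11 to 5, and leaving out mouse 22 lowered it to 7. Lox, which cross-links collagen, differed by 0.07 ± 0.35 (adjusted p = 0.899) under semaglutide.

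Enzymes that build the sugar chains of SLRPs mostly did not pass the threshold. It was passed by 25.1% of all genes tested under semaglutide and by 18.4% with the ketone ester against semaglutide. Of 14 genes for the linker sugars and their precursors, 3 fell under semaglutide: Xylt1, which starts the chain (-0.95 ± 0.29, adjusted p = 0.0324), Uxs1, which makes UDP-xylose (-0.79 ± 0.25, adjusted p = 0.0373), and B3gat3, which ends the linker (-0.43 ± 0.14, adjusted p = 0.0377). These calls were fragile, since the count of 3 became 0 without any one of mice 2, 3, 4, 15, 16 or 17, 1 without mouse 1, 5 without mouse 13 and 1 after rescaling to equal totals. No gene of that list passed the threshold with the ketone ester against semaglutide by limma or edgeR, 1 did by DESeq2, 1 had an unadjusted p under 0.05 by limma, 4 passed without mouse 13 and 1 was lower after rescaling. Of 14 tested chondroitin and dermatan sulfate enzymes, Dsel, an epimerase that makes dermatan sulfate, fell (-0.74 ± 0.19, adjusted p = 0.0164) and Chpf2, a chondroitin polymerizing factor, rose (0.54 ± 0.13, adjusted p = 0.0129) under semaglutide, both with any mouse left out, and the count of 2 was 4 without mouse 1. When the ketone ester was added Chpf2 (-0.52 ± 0.16, adjusted p = 0.0359) and the sulfotransferase Chst11 (-0.84 ± 0.27, adjusted p = 0.0475) fell and Chst7 rose (0.96 ± 0.31, adjusted p = 0.0485). That count of 3 was 1 or 0 without any one of mice 3, 5, 14, 15, 16, 17, 19, 21 or 22, and rescaling left 3 genes lower and none higher.

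Of the 7 tested genes for keratan sulfate chains and tyrosine sulfation, the same 2 passed the threshold in both comparisons that hold the semaglutide group. Among all genes tested 25.1% passed it under semaglutide and 18.4% with the ketone ester against semaglutide. B4galt1, a galactosyltransferase that also extends keratan sulfate, averaged 655 ± 156 normalized counts with vehicle, 1091 ± 95.4 under semaglutide and 689 ± 82.9 with the ketone ester, and rose by 0.76 ± 0.14 (adjusted p = 0.00354) under semaglutide. Tpst2, which sulfates tyrosines such as those of Fmod, averaged 248 ± 23.4, 170 ± 23.1 and 255 ± 27.8 and fell by -0.55 ± 0.11 (adjusted p = 0.00435). Against semaglutide alone, B4galt1 fell with the ketone ester by -0.66 ± 0.17 (adjusted p = 0.0185), a call lost without mouse 21 or 22, and Tpst2 rose by 0.59 ± 0.13 (adjusted p = 0.00899), a call lost after rescaling to equal totals, where its difference was 0.35.

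Proteases and their enhancers that act on SLRPs or on procollagen fell in part under semaglutide, where 13.2% of all genes tested fell. Of 11 tested, 4 fell and none rose under semaglutide, against 4 lower and 2 higher after rescaling to equal totals. Those that fell were Adamts5, an aggrecanase that also cleaves SLRPs (-1.02 ± 0.18, adjusted p = 0.00224), the procollagen C-proteinase Bmp1, which also trims the Bgn propeptide (-0.89 ± 0.17, adjusted p = 0.00397), its enhancer Pcolce (-0.98 ± 0.27, adjusted p = 0.0203), lost without mouse 15 or 17, and the gelatinase Mmp2 (-0.89 ± 0.22, adjusted p = 0.0125). In the ketone ester group 3 rose and 1 fell against semaglutide, where 9.09% of all genes tested rose and 9.3% fell. Adamts5 rose by 0.94 ± 0.21 (adjusted p = 0.0099), Mmp2 by 0.86 ± 0.25 (adjusted p = 0.0337) and Bmp1 by 0.75 ± 0.20 (adjusted p = 0.0229), and Adamts9 fell by -1.16 ± 0.34 (adjusted p = 0.034). This count of 4 was 2 without mouse 15 or mouse 17, 1 without mouse 21 and 0 without mouse 22, and after rescaling 1 rose and 2 fell.

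**Figure D4:**
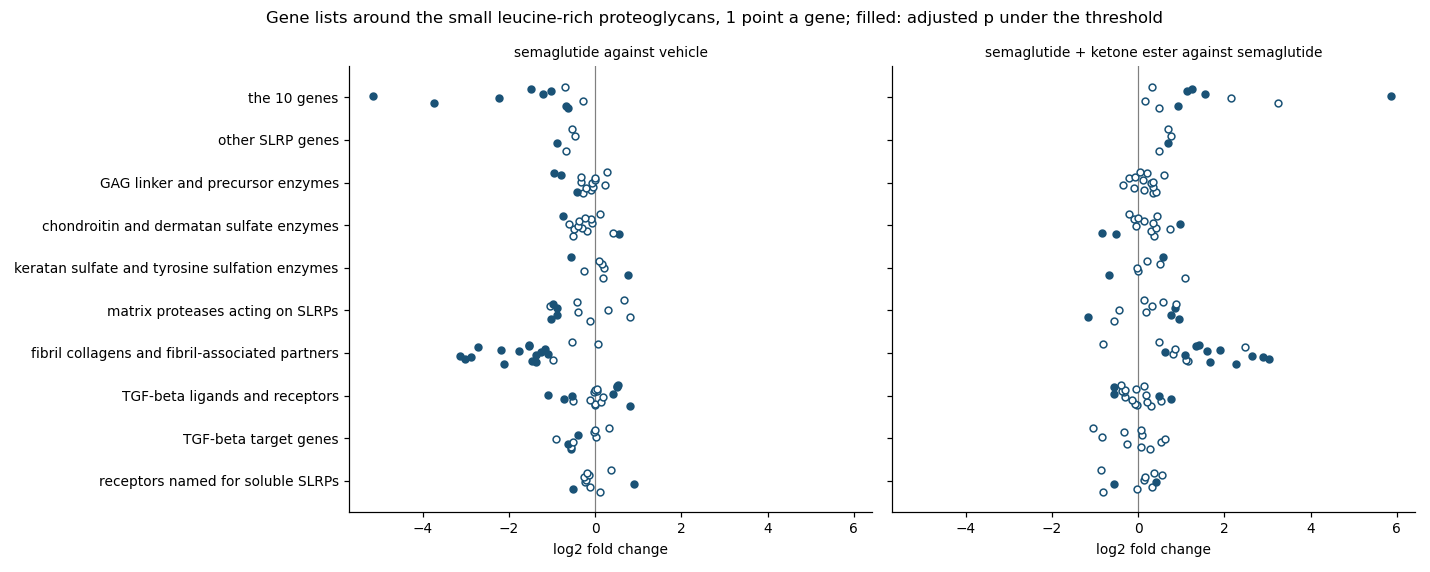
Log2 fold changes of each tested gene (1 point a gene, vertical position within a row arbitrary) of the 10 genes and the 9 lists around them, for semaglutide against vehicle and for semaglutide + ketone ester against semaglutide, with filled points for an adjusted p under 0.05 (SLRP, small leucine-rich proteoglycan; GAG, glycosaminoglycan). Of the lists outside the 10 genes, the fibril collagens and their partners held 15 lower genes of 18 under semaglutide.

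TGF-β, which Dcn, Bgn, Fmod and Aspn can bind, was represented by genes of the pathway and by target genes. The 3 ligand genes Tgfb1, Tgfb2 and Tgfb3 differed under semaglutide by 0.05 ± 0.17, -0.01 ± 0.24 and 0.04 ± 0.12, with adjusted p of 0.855, 0.981 and 0.833. Of the 18 pathway genes, 5 rose and 3 fell under semaglutide, where 11.9% of all genes tested rose and 13.2% fell. This count of 8 became 5 without mouse 17. Acvr2b, the activin and myostatin receptor, rose by 0.81 ± 0.17 (adjusted p = 0.00592), and Tgfbr3, the coreceptor betaglycan, rose by 0.53 ± 0.16 (adjusted p = 0.0316), a call lost without any one of mice 1, 3, 5, 15, 16 or 17. Smad3, the signal transducer, averaged 2590 ± 390 normalized counts with vehicle, 1339 ± 674 under semaglutide and 1367 ± 76.3 with the ketone ester, and fell by -1.09 ± 0.29 (adjusted p = 0.0183) under semaglutide. Ltbp4, which holds latent TGF-β in the matrix, fell by -0.73 ± 0.12 (adjusted p = 0.00137). With the ketone ester against semaglutide 2 of the 18 rose, Ltbp4 by 0.76 ± 0.13 (adjusted p = 0.00395) and Smad2 by 0.49 ± 0.11 (adjusted p = 0.0117). In the same comparison 2 fell, Tgfbr1 by -0.57 ± 0.16 (adjusted p = 0.0327) and Smad4 by -0.55 ± 0.11 (adjusted p = 0.00563), and after rescaling 1 rose and 6 fell. Under semaglutide Smad2 had fallen by -0.53 ± 0.10 (adjusted p = 0.0027). Tgfbr1 had risen there by 0.49 ± 0.14 (adjusted p = 0.0255) and Smad4 by 0.42 ± 0.09 (adjusted p = 0.0075). Between semaglutide + ketone ester and vehicle Smad2, Tgfbr1 and Smad4 differed by -0.04 ± 0.11, -0.07 ± 0.16 and -0.14 ± 0.11, none past the threshold. The count of 4 was 2 without mouse 21, and Tgfbr1 was not past the threshold without any one of mice 15, 17, 19, 21 or 22.

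Of 10 TGF-β target genes, 3 fell under semaglutide, where 13.2% of all genes tested fell: Eln, elastin (-0.62 ± 0.14, adjusted p = 0.00725), Acta2, smooth muscle actin, which is also in the smooth muscle marker list (-0.56 ± 0.16, adjusted p = 0.0228), and Skil, a SMAD corepressor (-0.40 ± 0.13, adjusted p = 0.0378). That count was 1 without mouse 15 and 5 without mouse 16, and 1 after rescaling, and Skil was not past the threshold without mice 1 and 13 together. None of the 10 passed the threshold with the ketone ester against semaglutide by limma, edgeR or DESeq2, and none had an unadjusted p under 0.05 by limma, although 1 passed without mouse 16 and 2 were lower after rescaling. In semaglutide + ketone ester against vehicle 2 of the 104 tested genes of the 9 lists passed the threshold. Acvr2b was higher by 1.11 ± 0.20 (adjusted p = 0.0466) and Eln lower by -0.87 ± 0.16 (adjusted p = 0.0479), named here after their values were seen. With each of the 13 mice left out in turn, the call in the pathway list was lost in 11 (all but those without mouse 4 or mouse 13) and that in the target list in 12 (all but the fit without mouse 13). Both were lost without the filter on low values and with only the 2 groups in the fit, and rescaling to equal totals ended that of Acvr2b.

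Receptors through which soluble SLRPs can signal were tested last. In each of the first 2 comparisons 2 of 10 passed the threshold, near the shares of all genes tested (25.1% and 18.4%). Of 10 tested, Igf1r, the insulin-like growth factor receptor bound by Dcn, rose under semaglutide by 0.90 ± 0.15 (adjusted p = 0.00192), from 281 ± 23.2 normalized counts with vehicle to 537 ± 124, whichever mouse was left out. Egfr, also bound by Dcn, fell by -0.50 ± 0.17 (adjusted p = 0.0422), and the count of 2 became 1 without any one of mice 1, 3, 4, 5, 13, 14, 15 or 17, and after rescaling, and Egfr was not past the threshold without mice 1 and 13 together. With the ketone ester Igf1r was at 356 ± 51.0 and fell by -0.57 ± 0.18 (adjusted p = 0.0417), and Kdr, the endothelial VEGF receptor, rose by 0.41 ± 0.12 (adjusted p = 0.0296). That count of 2 became 0 without mouse 15, 17, 21 or 22 and 1 without mouse 1, 2, 3, 4, 5, 14 or 16, and after rescaling 1 gene was lower.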

How the data were processed

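RNA-seq libraries of the gastrocnemius of 13 mice were prepared by the authors with a stranded mRNA kit and sequenced with paired-end reads, which were aligned to mm10 with DRAGEN. The submitters' processing notes also name DESeq2, and the counting program and gene annotation are not given in the sources used here. The deposited signal is 1 normalized count per gene and mouse. Each value was a whole multiple of the worth of 1 read in its column (100% of values above 0, tolerance 0.01 reads), so whole reads were recovered for edgeR and DESeq2. All samples carry the same batch label. Per the labels, RNA quality was checked on a Bioanalyzer or TapeStation and samples that qualified were used, with no value per sample in the sources used here.

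Normalized counts were taken to log2(normalized count + 1) and fitted with limma 3.58.1 in R 4.3.3 for the 12303 of 21868 genes with a mean of at least 10 over the 13 mice, all 3 groups in one model, with Benjamini-Hochberg adjustment over all genes tested and a threshold of 0.05. This filter used no group labels, but it weighs the groups of 5, 5 and 3 mice by their size. Kera and Omd had means under 10 in the semaglutide group (2.72 and 9.60) and passed through the other groups. edgeR 4.0.16 (quasi-likelihood test) and DESeq2 1.42.0 on recovered reads, another pseudocount, no filter, columns rescaled to equal totals, sample weights, an intensity trend, only the 2 groups compared, and each mouse left out were the alternatives. The fit was also run on simulated data in which genes were drawn independently and few were changed. That run does not cover mice in which many genes shift together. Each sample is 1 mouse, and p-values of the main fit set a difference between groups against the spread between mice, pooled over the 3 groups. Values after ± are SEs of that fit or SDs between the mice of a group, as marked, whereas the floor of 3 reads covers counting error only.

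The 10 genes and all gene lists were chosen with earlier results of these data known. Named genes are the 10, all detected genes of the other SLRPs, up to 4 genes per list with the largest fold change among those past the threshold in each of the first 2 comparisons, and the 5 genes most correlated with Kera and with Dcn. Tnmd, Scx, Lox, the TGF-β ligands and other marker genes with values were named beyond this rule, after their values were seen. Counts without strand information cannot separate overlapping antisense genes, and the strand setting of the counting is not given. Promoter windows and their sequences are from RefSeq.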

Additional observations from a re-analysis of the deposited data

Results flagged for a closer look

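In groups of 5 mice, 92 sets of values were examined for 1 mouse far from the other 4. They covered the 10 genes and the named genes of the lists. Summed tendon markers, summed fibroblast and fibro-adipogenic progenitor markers and the share of reads on the 10 genes were also covered. In these sets 13 such values were found, where chance alone gives about 1 in 20. The values of 1 mouse are not independent across these genes. Vehicle mouse 1 was low for Chad, at 20.6 normalized counts against at least 399 in the other 4, for Col1a1 (611), Col1a2 (795) and Col3a1 (883). Semaglutide mouse 13 was high for Chad (123), Lum (339 against at most 135), Col1a2 (736), Ecm2 (227) and Uxs1 (187). Semaglutide mouse 14 was low for Dcn, at 3924 against at least 4866. Single values stood apart for Egfr in vehicle mouse 2 (318), Skil in semaglutide mouse 15 (117) and Smad2 in vehicle mouse 5 (229).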

How the results depend on the processing

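Of the 220 refitted fold changes of the 10 genes under semaglutide, none turned its sign, 26 lost and 7 gained the threshold. With the ketone ester against semaglutide 25 lost it, 14 gained it and 1 turned (Dcn, -0.082 after rescaling). Against vehicle 8 near 0 turned: without 1 mouse, Fmod ran from -0.671 to 0.137, Dcn from -0.327 to 0.052 and Ogn from -0.142 to 0.234 (-0.142 also without mice 1 and 13), negative without mouse 1 or 21. Genes called under semaglutide were 4847 with sample weights. With the ketone ester against semaglutide they were 4198 after rescaling, 4279 with sample weights, 751 with only the 2 groups, 3845 without mice 1 and 13, and 861 to 3959 without 1 mouse. The 10 genes then had 3 calls without the filter, 8 with sample weights, 2 with only the 2 groups, and 1 to 7 without 1 mouse, and under semaglutide 4 to 10. Against vehicle the calls were 4 without the filter, 45 by edgeR and with an intensity trend, 171 by DESeq2, 205 with sample weights, and 1 to 77 without 1 mouse. By the study's criterion 671 genes had a fold of at least 2, and the 10 genes had 5 to 9 without 1 mouse. The causes were not tested. Omd and Kera under semaglutide rest on few reads. No paired analysis was possible because the groups share no mouse.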
